A study of Mus musculus with 5 samples.

Results

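Activator protein 1 (AP-1) is a dimer of basic leucine zipper proteins, built from a FOS and a JUN subunit or from 2 JUN subunits, and it binds DNA at short sites upstream of cytokine and growth genes. Several FOS and JUN genes are immediate early genes, switched on within minutes of a signal through mitogen-activated protein kinases and also by the digestion of a tissue into single cells. BATF and BATF3 are smaller leucine zipper proteins that pair with JUN subunits in place of FOS, join IRF4 or IRF8 at composite DNA sites, and are needed for several helper T cell programmes. The genes followed here were 9 of the 27726 genes counted in every library: the FOS family (*Fos*, *Fosb*, *Fosl1* and *Fosl2*), the JUN family (*Jun*, *Junb* and *Jund*), and the pair *Batf* and *Batf3*. They were chosen by symbol, as were the gene lists used below, with earlier results of these data known. All 9 symbols were found.

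They were measured by droplet single-cell RNA sequencing, which counts unique molecular identifiers (UMIs) at the 3′ ends of transcripts, in 5 libraries of type 2 innate lymphoid cells (ILC2s) from lungs of wild-type C57BL/6 mice. All cells went through enzymatic digestion of the lung and a sort for lineage-negative, ST2+, CD127+, Thy1.2+ cells. The naive library came from mice without a tumour and was sequenced fresh. The 2 ta-non-activated (tumour-associated) libraries came from mice carrying a tumour and were also sequenced fresh, at week 2 and at week 3 after implantation. The 2 ta-activated libraries came from tumour-bearing mice at the same weeks, but the sorted cells were first kept in culture for a week with IL-33 and TSLP, to which the study's methods add IL-2. The mice were female and a few weeks old, and the tumour was a subcutaneous TC1 graft. Each library pools the lungs of several mice, so a library is 1 replicate whose spread between animals is unknown, and the p-values below measure only the spread between libraries.

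After barcodes with fewer than 200 genes or with 5% or more mitochondrial counts were left out, 16530 cells remained, from 1601 to 6389 per library, with 9394957 to 61830293 UMIs per library and a median of 4396 to 16090 UMIs per cell. At most 8 cell barcodes were shared by any pair of libraries. Levels are given as CPM, the UMIs of a gene scaled to a library total of 1000000 UMIs, with exact Poisson 95% intervals that cover counting error only. A count of 3 UMIs was taken as the floor, which lies at 0.0926 CPM in the naive library.

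The 2 ta-non-activated libraries stood apart from each other, and whether their labels are right was not tested. In the library labelled ta-non-activated week 3, 858 of 1601 cells (53.6%) had UMIs of 3 or more of 9 T-lineage genes, and only 628 (39.2%) passed a gate that asked for at least 2 of 7 ILC2 genes and fewer than 2 of the T-lineage genes. The 14 listed T-lineage genes summed to 6467 CPM there, against 328 to 1293 in the other 4 libraries, and included *Dntt* at 982.0, *Ptcra* at 92.2 and *Rag1* at 63.9, which are genes of immature thymocytes. In the other libraries 89.5% to 96.6% of cells passed the ILC2 gate. The library labelled ta-non-activated week 2, a fresh library by its label, had the highest *Il13* level of all 5 libraries (8861 CPM) and the highest *Il9* level (12576), against 55.6 and 0.0926 in the naive library and 4318 and 342 in the ta-activated week 3 library. It held 525.5 CPM of 12 cell cycle genes, more than the naive library (91.5). That was less than in ta-non-activated week 3 (1400.5) and in either ta-activated library (1494 and 1840). In ILC2-gated cells alone the sum was 530.2, against 81.5 in naive, 117.3 in ta-non-activated week 3, and 1878 and 1480 in the ta-activated libraries. The label ta-non-activated week 2 was kept in every comparison, and each comparison is also given without that library.

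The 9 genes lie on 7 chromosomes. In the mouse build GRCm38 with GENCODE M21 models, *Fos* spans chr12:85473890-85477273 and *Batf* chr12:85686669-85709087, both on the plus strand. Also on the plus strand are *Fosl1* at chr19:5447547-5455946, *Fosl2* at chr5:32135801-32157842, *Jund* at chr8:70698949-70700616 and *Batf3* at chr1:191097847-191108945. On the minus strand are *Fosb* at chr7:19302696-19310051, *Jun* at chr4:95049034-95052222 and *Junb* at chr8:84974484-84978718. *Jun* and *Jund* have no intron, while *Fos* has 1032 intronic bases, *Fosl2* 12362 and *Batf* 21013. The naive library was counted with another release of Cell Ranger than the other 4, and whether reads in introns entered its counts is not given in the sources used here. *Jun*, *Junb*, *Jund* and *Fosl1* each overlap a gene on the opposite strand (*Junos*, *Prdx2*, *Gm11175* and *Ccdc85b*), and the sources used here do not state whether counting was by strand.

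The sequences just upstream of *Fos*, *Fosb* and *Batf* are shown because these genes had the widest differences between libraries in each direction. They are the RefSeq promoter bases on GRCm38.p6 up to the first base of the gene model, written 5′ to 3′ on the strand of the gene, at chr12:85473640-85473889 for *Fos*, chr7:19310052-19310295 for *Fosb* and chr12:85686470-85686668 for *Batf*. Capitals mark the letters TGACG, the core letters of the element bound by CREB and ATF proteins, and in *Fos* also TATAAA, the TATA box.
Fos: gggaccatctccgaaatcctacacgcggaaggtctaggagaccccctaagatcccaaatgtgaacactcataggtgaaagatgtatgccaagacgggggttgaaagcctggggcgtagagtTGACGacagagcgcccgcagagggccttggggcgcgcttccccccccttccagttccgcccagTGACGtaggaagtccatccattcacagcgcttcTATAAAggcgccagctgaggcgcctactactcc
Fosb: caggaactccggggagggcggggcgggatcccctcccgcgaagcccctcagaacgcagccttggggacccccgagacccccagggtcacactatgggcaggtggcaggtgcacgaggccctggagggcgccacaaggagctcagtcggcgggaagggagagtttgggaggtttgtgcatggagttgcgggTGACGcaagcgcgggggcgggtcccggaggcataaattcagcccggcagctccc
Batf: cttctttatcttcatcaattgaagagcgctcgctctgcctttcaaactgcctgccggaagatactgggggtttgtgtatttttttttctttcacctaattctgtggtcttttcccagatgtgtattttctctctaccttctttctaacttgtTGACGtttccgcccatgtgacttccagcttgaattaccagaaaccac
All 3 stretches hold TGACG. In *Fos* it stands at 129 to 125 and again at 66 to 62 bases before the RefSeq start, in *Fosb* at 60 to 56 bases and in *Batf* at 98 to 94 bases. Of the 8 members with a RefSeq promoter in the table used (*Fosl1* is not among them), *Junb* holds it as well, and 17.9% of all 27025 promoter windows of 250 bases hold it on either strand. TATAAA was found in *Fos* alone among the 8, at 33 to 28 bases before the start, and in 13.0% of all promoters. The AP-1 site TGAGTCA, found in 4.43% of promoters, and the full element TGACGTCA, found in 1.62% and containing TGACG, were in none of the 8 windows. These are matches of letters in a window of 250 bases and were not tied to any measured binding.

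*Fos* and *Fosb*, the immediate early members of the FOS family, were among the abundant members in the naive library and nearly absent after culture. *Fos* stood at 1151 CPM in the naive library (95% interval 1139 to 1162) and at 592.3 in the ta-non-activated week 3 library. It stood at 1.95 in ta-activated week 2, at 1.42 in ta-activated week 3, and at 0.692 in the library labelled ta-non-activated week 2, which rests on 23 UMIs. So the level was high in 2 of the 3 fresh libraries, and the third fresh library lay below both cultured ones. *Fosb* followed the same order at the top, with 1110 CPM in naive and 191.7 in ta-non-activated week 3, and was at 0.485, 0.244 and 0.12 in ta-activated week 3, ta-activated week 2 and ta-non-activated week 2. The interval of ta-activated week 2 overlaps those of both other libraries, while ta-activated week 3 (0.327 to 0.693) and ta-non-activated week 2 (0.0328 to 0.308) do not overlap.

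*Fosl2*, a FOS family member without the strong transactivation domain of FOS, moved in the same direction but kept a measurable level. It was at 352.1 CPM in naive, 162.1 in ta-non-activated week 3, 19.1 in ta-activated week 2, 15.9 in ta-activated week 3 and 6.77 in ta-non-activated week 2. *Fosl1*, the gene of the FOS-related protein FRA-1, was low in every library, from 0.954 in ta-activated week 3 to 6.24 in naive, and its neighbours in order overlapped in their intervals except for the ta-activated week 3 library.

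The members of the JUN family differed in how much of their level the cultured libraries held. *Jun* was at 906.8 CPM in ta-non-activated week 3, 621.3 in naive, 36.1 in ta-non-activated week 2, 20.4 in ta-activated week 3 and 13.9 in ta-activated week 2. *Junb*, the most abundant member in all 3 libraries labelled as fresh, was at 3039 in naive, 2769 in ta-non-activated week 3, 675.7 in ta-activated week 3, 589.7 in ta-non-activated week 2 and 498.2 in ta-activated week 2. *Jund*, which is known for steady expression in resting cells, was at 1450 in naive, 1288 in ta-non-activated week 3, 1006 in ta-activated week 2, 839.1 in ta-activated week 3 and 393.2 in ta-non-activated week 2. *Jund* was thus the most abundant of the 9 in both cultured libraries, as 3′ UMI counts that carry no length factor, and the library labelled ta-non-activated week 2 was its low point.

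*Batf* ran in the opposite direction. It was at 379.8 CPM in ta-activated week 3, 258.0 in ta-non-activated week 2 and 224.5 in ta-activated week 2, against 34.4 in naive (32.4 to 36.5) and 24.8 in ta-non-activated week 3 (21.7 to 28.2). No 2 of the 5 intervals overlapped. *Batf3*, best known for its role in dendritic cells, was scarce everywhere, at 4.05 in ta-activated week 2, 2.96 in naive, 1.53 in ta-non-activated week 2 and 0.852 in ta-non-activated week 3, and with 2 UMIs in ta-activated week 3, which is under the floor.

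**Figure D1:**
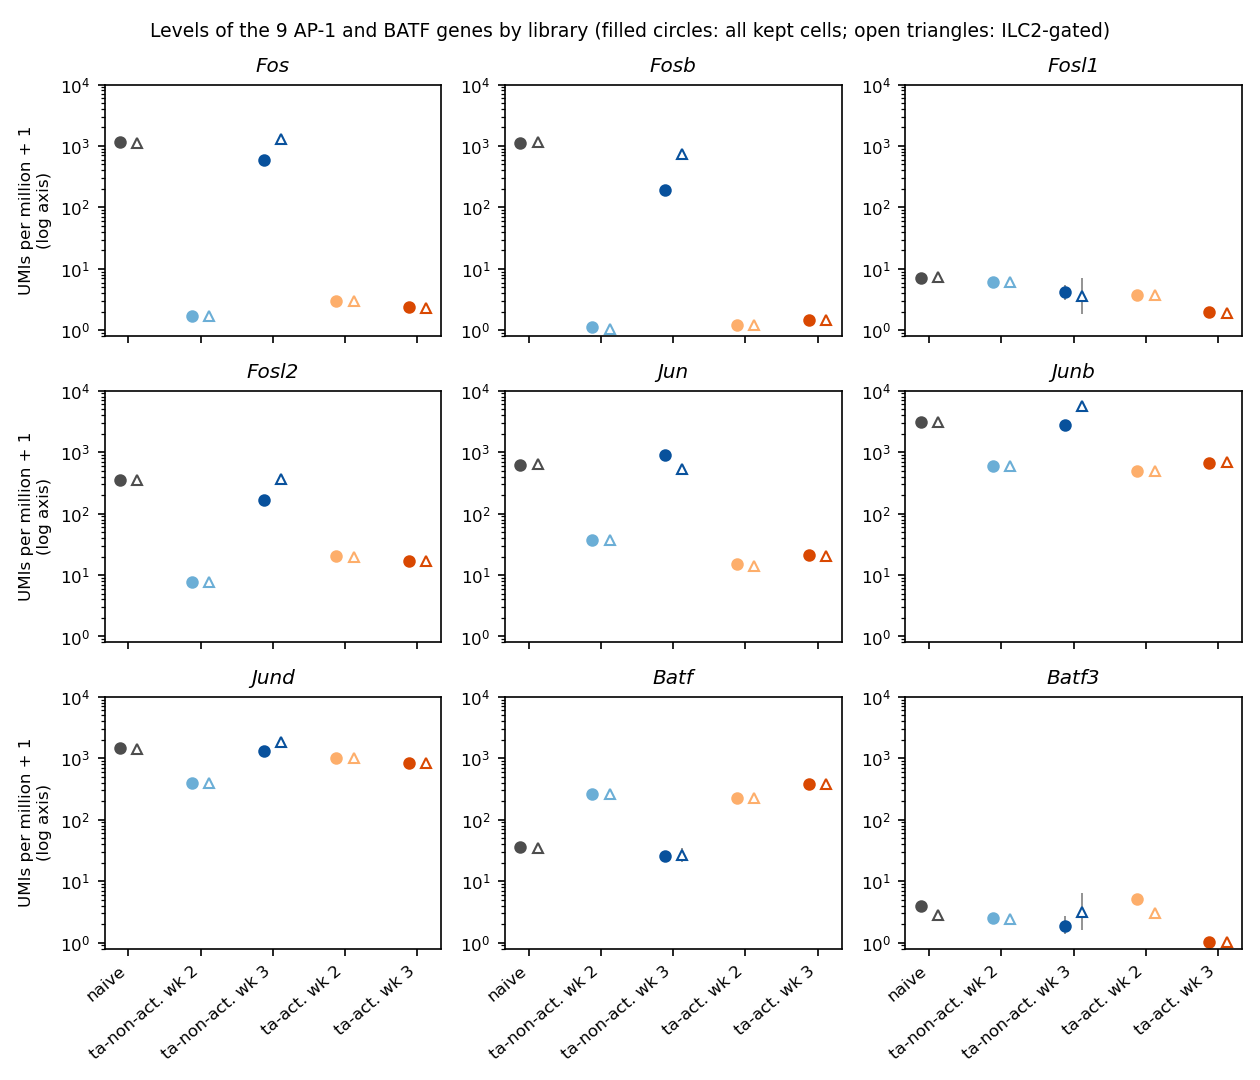
Level of each of the 9 genes in each library, as CPM plus 1 on a log axis; filled circles are all kept cells, open triangles the ILC2-gated cells, and lines the exact Poisson 95% intervals, mostly smaller than the symbols. *Fos*, *Fosb*, *Fosl2*, *Jun* and *Junb* are high in the naive and ta-non-activated week 3 libraries and *Batf* is low there, while the library labelled ta-non-activated week 2 lies near the cultured libraries for these 6 genes.

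The ILC2 gate moved the week 3 fresh library toward the naive library for some members and away from it for others. In ILC2-gated cells *Fos* was at 1286 CPM in ta-non-activated week 3 and 1136 in naive, *Fosb* at 732.4 and 1150, *Fosl2* at 360.4 and 350.1, and *Jun* at 522.6 and 627.3. *Junb* was at 5595 and 3095 and *Jund* at 1836 and 1426, and both were further from naive than in all kept cells. The gate raised *Fos* by 2.17 times, *Fosb* by 3.82 times and *Junb* by 2.02 times in that library and lowered *Jun* to 0.576 of its level. The T-lineage-gated cells of the same library had *Fos* at 378.0, *Fosb* at 37.6 and *Jun* at 1003 CPM. Among *Fos*, *Fosb*, *Fosl2*, *Jun*, *Junb* and *Jund*, *Jun* alone was higher in these cells than in the ILC2-gated cells beside them. The 314 T-lineage-gated cells of the naive library had *Fos* at 1326, *Fosb* at 764.9 and *Jun* at 430.8, so this order was not shared by both fresh libraries. *Batf* was at 25.9 in the ILC2-gated and 24.3 in the T-lineage-gated cells of week 3, with overlapping intervals. In the other 4 libraries the gate moved no level of *Fos*, *Fosl2*, *Jun*, *Junb*, *Jund* or *Batf* by more than 1.5 times. It lowered *Batf3* to 0.603 of its level in naive and to 0.508 in ta-activated week 2. *Fosb* in ta-non-activated week 2 fell to 0.508, from 4 UMIs to 2. In gated cells the *Batf3* intervals of neighbours in order overlapped except for the ta-activated week 3 library.

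Shares of cells with a UMI were compared after each ILC2-gated cell was thinned to 2000 UMIs. A *Fos* UMI was found in 66.4% of 5520 naive cells and in 63.1% of 558 cells of ta-non-activated week 3. It was found in 0.339% of ta-activated week 2 cells, 0.359% of ta-activated week 3 cells and 0.114% of the 1759 cells labelled ta-non-activated week 2. Before thinning the shares were 79.0%, 68.0%, 2.76%, 1.31% and 1.25% in the same order of libraries. No cell type known to lack *Fos* was at hand to measure free RNA, so no expression was read from the low shares. *Fosb* was in 0 of 1759 thinned cells labelled ta-non-activated week 2, which allows a share of cells with a UMI of up to 0.171% by the floor of 3 counts and has an exact upper limit of 0.2095%.

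*Batf* was in 6.36% of naive and 5.02% of ta-non-activated week 3 cells, and in 35.7%, 26.6% and 49.5% of ta-non-activated week 2, ta-activated week 2 and ta-activated week 3 cells. The intervals of the 2 low shares overlapped, and the 3 high shares were separate from them and from each other. *Jund* stood in 80.3% and 73.7% of cultured cells, in 81.8% and 83.0% of naive and week 3 fresh cells, and in 49.9% of those labelled ta-non-activated week 2. *Junb* was in 91.9% and 93.2% of naive and week 3 fresh cells and in 45.3% to 66.7% of cells of the other 3 libraries. *Jun* was in 48.3% and 40.9% of naive and week 3 fresh cells and in 2.26% to 5.29% of the others. A lower level of these genes thus came with fewer cells that had a UMI.

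**Figure D2:**
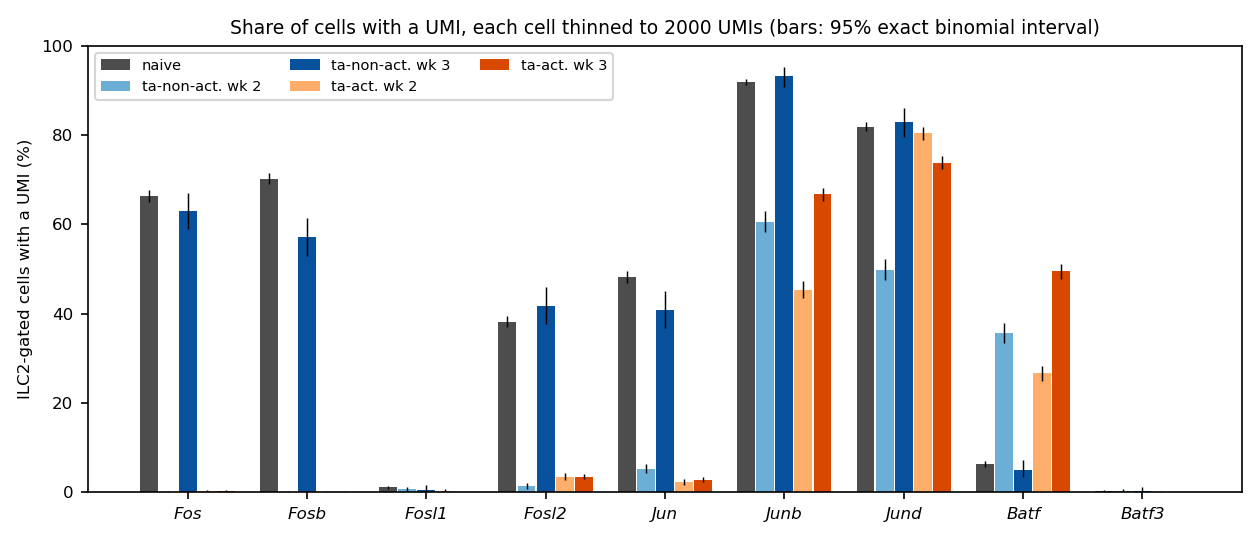
Share of ILC2-gated cells with at least 1 UMI of each gene after thinning every cell to 2000 UMIs, with exact binomial 95% intervals; 558 to 5520 cells per library. The share with *Fos* or *Fosb* is 57.2% to 70.2% in the naive and ta-non-activated week 3 libraries and at most 0.359% in the other 3, while *Jund* is found in 49.9% to 83.0% of cells of every library.

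The make-up of the 9-gene pool changed with these levels. In ILC2-gated cells the FOS family summed to 2642 CPM in naive, 2381 in ta-non-activated week 3, 23.7 in ta-activated week 2, 18.9 in ta-activated week 3 and 12.7 in ta-non-activated week 2. The JUN family summed to 5148, 7953, 1513, 1528 and 1020 in the same order, so the JUN sum differed less between libraries than the FOS sum. *Batf* made up 0.435% and 0.25% of the pool in naive and ta-non-activated week 3 cells, and 12.9%, 19.6% and 20.1% in ta-activated week 2, ta-activated week 3 and ta-non-activated week 2 cells. *Jund* made up 57.1% and 43.2% in the 2 ta-activated libraries, against 18.2% in naive.

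**Figure D3:**
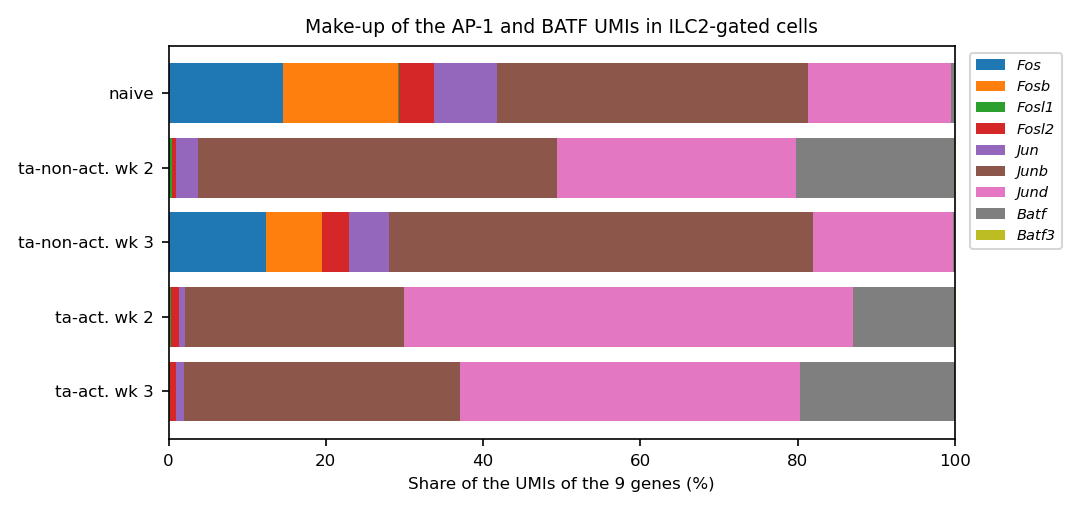
Share of the UMIs of the 9 genes that each gene took in the ILC2-gated cells of each library; every bar sums to 100%. *Fos* and *Fosb* together fill a visible part of the bar in naive and ta-non-activated week 3 cells, and *Batf* takes 12.9% to 20.1% in the other 3 libraries.

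The question whether members stay after culture was put to a test over libraries in 2 ways. In the first, the ta-activated pair was set against the ta-non-activated pair on counts summed per library, with the quasi-likelihood test of edgeR. None of the 9 members passed an adjusted p of 0.05, and none of all 12643 genes tested did (0.0% called), while 2120 genes had an unadjusted p under 0.05. DESeq2 called 1047 of 18230 genes (5.74%, of which 3.09% higher and 2.65% lower), with *Fos*, *Fosb* and *Jun* among those lower. Of these 18230 genes, 5655 were given no adjusted p and could not be called, so the shares understate the calls among the rest. The log2 difference (ta-activated minus ta-non-activated) was -7.41 with a standard error of 2.86 for *Fos*, -7.99 with 3.04 for *Fosb*, -4.76 with 1.51 for *Jun*, -1.53 with 0.713 for *Junb*, 0.11 with 0.563 for *Jund* and 0.87 with 1.15 for *Batf*. The 2 weeks went apart in these genes: on the scale of log2(CPM + 1), ta-activated minus ta-non-activated was -7.94 for *Fos* and 3.88 for *Batf* at week 3, and 0.80 and -0.20 at week 2.

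Without the library labelled ta-non-activated week 2, which leaves 1 fresh library assumed to vary like the cultured pair, 6 of 9 members passed where 12.1% of all 13604 genes did (6.01% higher and 6.09% lower). *Fos*, *Fosb*, *Fosl2*, *Jun* and *Junb* were lower and *Batf* was higher in the ta-activated libraries. The log2 difference was -8.38 with a standard error of 0.386 for *Fos*, -8.96 with 0.456 for *Fosb*, -3.14 with 0.263 for *Fosl2*, -5.66 with 0.336 for *Jun*, -2.18 with 0.267 for *Junb* and 3.66 with 0.477 for *Batf*. The edgeR adjusted p was 0.0255 for *Fos* and 0.0339 for *Batf* in this fit, and over all alternatives of this comparison, DESeq2 included, it ran from 0.0255 to 1 for *Fos* and from 0.0339 to 1 for *Batf*. *Jund* differed by -0.41 with a standard error of 0.27 and did not pass. The 14 T-lineage genes differ in the same fit, 12 of them lower in the ta-activated libraries, and their part in these values was not tested in it. The same 2 against 1 fit in ILC2-gated cells alone was a choice made after the data were seen. It called 0.777% of genes (0.183% higher and 0.595% lower), with *Fos*, *Fosb*, *Fosl2*, *Jun* and *Junb* among them and *Batf* not. The fresh library left out was the one near the cultured libraries for these 6 genes, which favours a separation. This gated fit is therefore no separate test of them. When the week 3 fresh library was left out instead, 3.85% of genes were called (1.75% higher and 2.1% lower) and no member was among them. The direction then turned for *Fos* (1.04), *Fosb* (1.33), *Fosl2* (1.13) and *Batf* (-0.027).

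The second test set the 2 cultured libraries against all 3 fresh ones, the naive library included. Again no member passed, as none of 12935 genes did (0.0%), with 1254 genes at an unadjusted p under 0.05. DESeq2 called 658 of 19663 genes (3.35%, of which 1.58% higher and 1.76% lower), *Fos*, *Fosb* and *Jun* among them as lower. Here 5842 of the 19663 were given no adjusted p. The log2 difference (cultured minus fresh) was -8.30 for *Fos* and 1.42 for *Batf*, with standard errors of 2.77 and 1.12. Without the library labelled ta-non-activated week 2, still none of 13149 genes passed, and *Fos*, *Fosb*, *Fosl2*, *Jun*, *Junb* and *Batf* each had an edgeR adjusted p of 0.139. In ILC2-gated cells without that library, a choice made after the data were seen that leaves 2 libraries on each side, 14.5% of 12850 genes were called (7.36% higher and 7.11% lower) and 6 of the 9 members were among them. *Fos* differed by -9.55 (standard error 0.584), *Fosb* by -11.5 (0.689), *Fosl2* by -4.39 (0.407), *Jun* by -5.21 (0.446), *Junb* by -2.97 (0.525) and *Batf* by 3.29 (0.431). The edgeR adjusted p was 0.00595 for *Fos* and 0.0118 for *Batf*. Over all alternatives of this comparison, DESeq2 included, the adjusted p ran from 3.57e-05 (DESeq2) to 1 for *Fos* and from 0.0118 (edgeR) to 1 for *Batf*. *Jund*, at -0.88 with a standard error of 0.409, did not pass, nor did *Fosl1* or *Batf3*. In this fit all 12 cell cycle genes were higher in the cultured cells, and 4 of the 8 tested T-lineage genes were lower. Of 13 ILC2 genes, 5 were lower, with *Il13* and *Il5* higher. The 5 lower ILC2 genes all belong to the ILC2 gate, and 2 of the lower T-lineage genes to the T-lineage gate. These counts thus depend on the choice of cells. The part of all these genes in the members' values was not tested. Culture, the added cytokines and time since digestion changed together between these libraries and cannot be told apart. Tumour state changed with them in part. The naive library came from mice without a tumour, and the week 3 fresh library, like both cultured ones, from tumour-bearing mice. The part of tumour state was not tested.

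**Figure D4:**
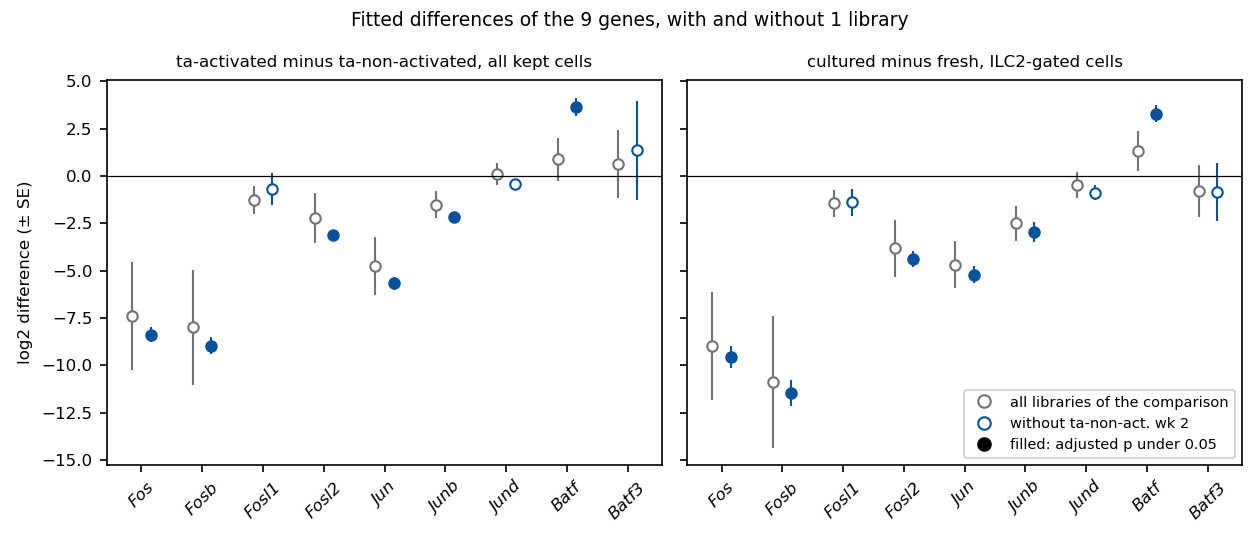
Fitted log2 difference with its standard error for the 9 genes: left, ta-activated minus ta-non-activated in all kept cells; right, cultured minus fresh in ILC2-gated cells; grey, all libraries; blue, without the library labelled ta-non-activated week 2; filled symbols have an edgeR adjusted p under 0.05. Leaving out that library narrows the errors, and it was the fresh library near the cultured ones for *Fos*, *Fosb*, *Fosl2*, *Jun*, *Junb* and *Batf*. On the right, where 2 libraries then remain on each side, these genes pass. The same comparison in all kept cells, not drawn, calls none of the 9. The left panel then sets 2 libraries against 1, in another set of cells than the right panel.

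Genes known to respond to tissue dissociation moved in the same direction as *Fos* in the last fit. Of 40 such genes other than the members, 20 were lower and 1 (*Socs3*, a cytokine signal inhibitor) was higher in cultured ILC2-gated cells, where 7.11% of all genes were called lower. Their median log2 difference was -2.13, beside 0.01 over all genes. *Dusp1*, a phosphatase that switches off MAP kinases, differed by -5.65 with a standard error of 0.566, the nuclear receptor gene *Nr4a1* by -6.40 with 0.763 and the heat shock gene *Hspa1a* by -8.55 with 0.524. By library, *Dusp1* was at 493.0 CPM in naive and 341.4 in ta-non-activated week 3, and between 7.40 and 16.5 in the other 3 libraries. *Hspa1a* was at 119.7 and 793.7 in the first 2 of these and between 0.418 and 3.88 in the others. Those others include the fresh library left out of the fit, which favours a separation. In all kept cells the median of the list was -1.60 with all 5 libraries and -2.04 without ta-non-activated week 2. The medians over all genes were -0.12 and -0.11, and no gene of this list or any other was called in those fits. The whole list summed to 16103 CPM in naive, 19600 in ta-non-activated week 3, 13782 in ta-non-activated week 2, and 8661 and 9982 in the ta-activated libraries. The part of dissociation in the FOS and JUN levels was not tested.

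In single cells of the naive library, *Fos* appeared together with other genes of this kind. Of the 3663 thinned ILC2-gated cells with a *Fos* UMI, 76.7% also had *Fosb*, 55.5% *Jun*, 51.8% *Dusp1* and 59.3% *Nr4a1*. Of the 1857 cells without one, the shares were 57.5%, 34.1%, 25.7% and 46.0%. *Batf* was in 6.28% and 6.52% of the same classes, and *Il5* in 16.6% and 17.6%, with overlapping intervals for each gene. *Il13* was in 6.01% of cells with *Fos* (5.26 to 6.83%) and in 4.15% of those without (3.29 to 5.16%). By level the order was not the same. *Fos* was at 1044 CPM in naive cells with an *Il13* UMI and 1119 in those without, with overlapping intervals. In the week 3 fresh library, *Fosb* was in 70.5% of 352 cells with *Fos* and in 34.5% of 206 without, and *Dusp1* in 58.2% and 33.0%. These shares describe cells of 1 library each and carry no test.

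Counts of the other lists stand beside 7.36% of all genes higher and 7.11% lower in the same fit, and nothing particular to a list is read from them. Of 18 tested of 19 listed leucine zipper genes that can pair with the members, *Atf3*, *Bach2* and *Maff* were lower in cultured ILC2-gated cells, with *Atf3*, a stress-induced repressor, at -4.25 and *Maff*, a small MAF protein gene, at -4.77 on the log2 scale. Of 17 kinase genes upstream of AP-1, *Mapk8*, which encodes the JUN kinase JNK1, was lower and none was higher, and of 6 serum response and ternary complex factor genes, *Elk4* was lower. None of the 5 IRF and NFAT genes passed, with log2 differences of -0.84 for *Nfatc3*, 0.14 for *Nfatc2* and -1.13 for *Nfatc1*, which encode calcium-regulated AP-1 partners. In all kept cells *Irf4*, the partner of BATF, was at 24.7 CPM in naive, 51.0 in ta-non-activated week 2, 0.852 in ta-non-activated week 3, 35.0 in ta-activated week 2 and 13.7 in ta-activated week 3, and its log2 difference in the gated fit was 0.61 with a standard error of 0.897. Of 25 tested genes known as AP-1 or BATF targets, *Gzmb*, *Il13*, *Il5*, *Il9*, *Timp1* and *Vim* were higher and *Ccl1*, *Il2*, *Mmp9* and *Plaur* lower, among them *Il13* at 5.62 with a standard error of 0.532.

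Cells with and without an *Il13* UMI, the transcript of a type 2 cytokine, were compared inside each library, so that differences between libraries drop out. ILC2-gated cells, each thinned to 2000 UMIs, were divided by the presence of an *Il13* UMI, and the summed counts of the 2 classes were compared by edgeR with the library as a block. The class with *Il13* held 297 of 5520 naive cells, 29 of 558 ta-non-activated week 3 cells, 1554 of 1759 ta-non-activated week 2 cells, 2002 of 2658 ta-activated week 2 cells and 3112 of 3622 ta-activated week 3 cells. It is a range and not a cell type, since 2.33% to 17.5% of cells lay at exactly 1 UMI, and the part of free *Il13* RNA in the class was not tested. Of the 9 members, 5 had counts enough to be tested, and *Batf* and *Junb* passed as higher, where 3.04% of 7496 genes did (2.13% higher and 0.907% lower).

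*Batf* was 0.74 higher on the log2 scale in cells with *Il13* (standard error 0.13, edgeR adjusted p = 6.1e-05) and higher in 4 of 5 libraries. It was at 278.3 against 131.7 CPM in ta-non-activated week 2, at 239.5 against 106.7 in ta-activated week 2 and at 418.7 against 328.4 in ta-activated week 3. In naive cells it was at 35.4 against 35.0, and in ta-non-activated week 3 at 17.2, from 1 UMI, against 29.3. The naive value rests on 21 UMIs (21.9 to 54.0 CPM), so these counts do not show whether the difference is absent in those libraries. *Junb* was 0.41 higher (standard error 0.0932, edgeR adjusted p = 0.00375), in 5 of 5 libraries, from 3653 against 3058 in naive to 639.3 against 419.5 in ta-non-activated week 2. *Jund* was also higher in 5 of 5 libraries, by 0.27 with a standard error of 0.0919, and did not pass (edgeR adjusted p = 0.11). *Jun*, at 0.11, did not pass, and *Fosl2*, at 0.37, was higher in the 3 fresh libraries and lower in both cultured ones, with an edgeR adjusted p of 0.287. For *Fosl2* the class intervals overlap in both ta-non-activated libraries and in ta-activated week 3, so its direction is not resolved there. *Fos*, *Fosb*, *Fosl1* and *Batf3* were too low in most classes to be tested. When *Il5* divided the cells in place of *Il13*, *Batf*, *Fosl2*, *Junb* and *Jund* were called as higher, by 0.22 to 0.40 on the log2 scale, where 3.06% of genes were called (2.36% higher and 0.7% lower). By *Il5*, *Junb* was higher in 5 of 5 libraries, *Jund* in 4, and *Batf* and *Fosl2* in 3 each. For the *Il13* classes, leaving out the library labelled ta-non-activated week 2 gave 204 of 7745 genes called. *Batf* then passed at 0.64 and *Junb*, at 0.35, did not. Without ta-activated week 2, 125 of 7313 genes were called, and the members called were *Batf* and *Fosl2*. In the 3 fresh libraries alone 75 of 6741 genes were called and no member passed. With no replicate block 2 of 7496 genes were called, no member among them. DESeq2 called 69 of 16665 genes, with *Junb* and *Jund* but not *Batf* among them (DESeq2 adjusted p = 0.109 for *Batf*). Here 13570 of the 16665 were given no adjusted p. Thinning to 1000 UMIs gave 118 of 7089 genes and left *Batf* alone.

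*Irf4* was called higher in the cells with *Il13* as well, by 1.08 with a standard error of 0.224, as was *Atf3*, by 0.83. Of 32 tested dissociation and immediate early genes, 9 were higher, such as *Nr4a1* at 0.96, and *Klf2*, a gene of quiescent lymphocytes, was lower. In this fit 2.13% of all genes were higher and 0.907% lower. Of 13 tested target genes 8 were higher, with *Il13* itself, which formed the classes, *Il5* at 2.26 and *Csf2*, which encodes GM-CSF, at 1.70. The kinase gene *Map3k8* was the only one of 17 that passed, at 0.50. The median log2 difference was 0.22 over the dissociation genes and -0.01 over all genes.

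The same cells were divided by cell cycle, with a cell counted as cycling when it had UMIs of at least 2 of 12 cycle genes. That class held 39 naive, 147 ta-non-activated week 2, 642 ta-activated week 2 and 643 ta-activated week 3 cells, and 5 ta-non-activated week 3 cells. *Fosl2*, *Junb*, *Jund* (edgeR adjusted p = 0.0369) and *Batf* (edgeR adjusted p = 0.0297) were lower in cycling cells and passed, where 16.6% of 7614 genes were called (8.73% higher and 7.85% lower). *Fosl2* was lower by 1.27 (log2 difference -1.27, standard error 0.264, edgeR adjusted p = 3.2e-05). *Junb* was lower by 1.13 (log2 difference -1.13, standard error 0.262, edgeR adjusted p = 0.000297). Both were lower in 5 of 5 libraries. For *Fosl2* the cycling class held 1 UMI in each ta-non-activated library. Its class intervals overlap in those libraries and in ta-activated week 3, so its direction is not resolved there. *Junb* was at 285.1 CPM in cycling and 533.2 in other cells of ta-activated week 2, and at 496.9 and 750.3 in ta-activated week 3. On the scale of log2(CPM + 1) its difference ran from -0.567 in naive to -1.227 in ta-non-activated week 3. Only the latter library, with 5 cycling cells, had a drop as large as the fitted one.

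*Jund* was lower in 5 of 5 libraries, with a fitted log2 difference of -0.64 and a standard error of 0.231. That is a larger drop than in any library on the scale of log2(CPM + 1). There it ran from -0.105 in ta-non-activated week 2 to -0.589 in ta-non-activated week 3. The class intervals overlap in both of these libraries. *Batf* differed by -0.54 with a standard error of 0.189, but was lower in 3 of 5 libraries only. It was at 281.5 against 432.9 in ta-activated week 3 and 124.6 against 232.9 in ta-activated week 2. It was at 272.1 against 260.2 in ta-non-activated week 2, and at 76.9, from 6 UMIs, against 34.8 in naive, with overlapping intervals in each. The cycling class of ta-non-activated week 3 held 0 *Batf* UMIs in 5 cells, against 28.9 CPM, so its direction is not resolved. *Jun* did not pass, and ran from 5.45 against 16.1 in ta-activated week 2 to 37.3 against 14.1 in ta-activated week 3, so the cultured libraries went opposite ways. Of the 32 dissociation and immediate early genes tested, 16 were lower in cycling cells and none was higher, where 7.85% of all genes were lower and 8.73% higher. Of 13 other leucine zipper genes *Crem* (-0.72) and *Jdp2* (-0.91) were lower. None of 17 kinase genes, 5 serum response and ternary complex factor genes or 4 IRF and NFAT genes passed. Of 12 target genes *Areg*, *Ccl1*, *Csf2* and *Il5* were lower. Without ta-activated week 2, 455 of 7528 genes were called and the members called were *Fosl2* and *Junb*. Without ta-activated week 3, 563 of 7440 were called, with *Fosl2*, *Jun* and *Junb* among them. Without the library labelled ta-non-activated week 2, 1303 of 7772 were called and *Jund* did not pass. *Batf* was called in 5 of 11 alternatives and *Jund* in 4 of 11: *Batf* was lost with DESeq2 and with no ILC2 gate, *Jund* with at least 3 cycle genes and without the naive library, and both after thinning to 1000 UMIs, which left *Junb* alone. With no replicate block 112 of 7614 genes were called and no member passed. Thinning to 1000 UMIs called 681 of 5536 genes. DESeq2 called 1012 of 16665, of which 6462 were given no adjusted p and could not be called.

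**Figure D5:**
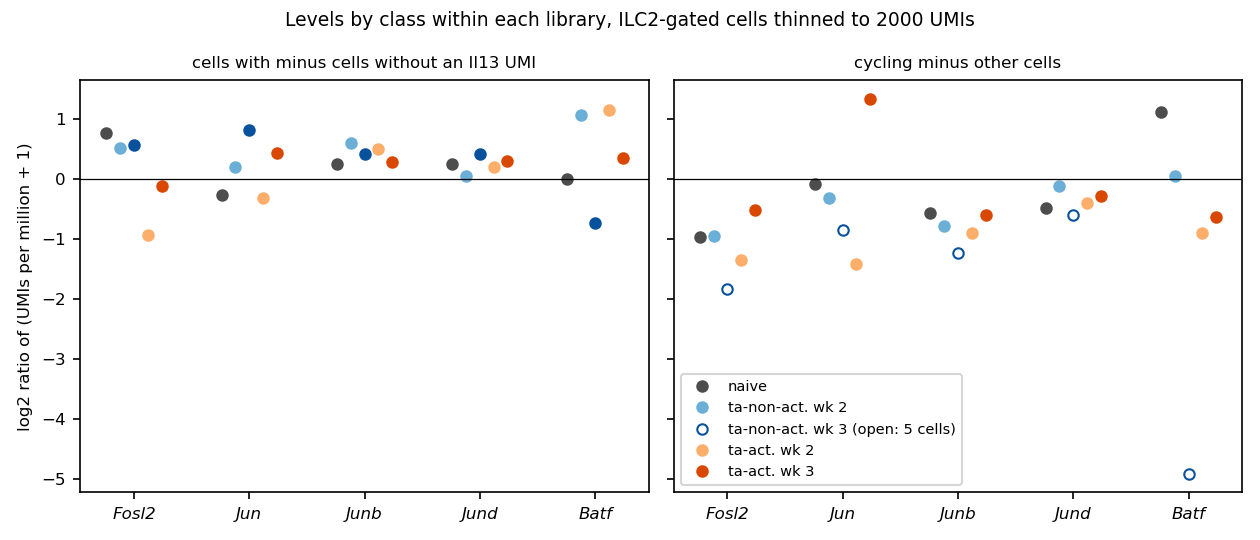
Log2 ratio of CPM (plus 1) between the 2 classes of ILC2-gated cells within each library, for the 5 tested members: left, cells with minus cells without an *Il13* UMI; right, cycling minus other cells; each point is a library. *Junb* and *Jund* lie above 0 on the left and below 0 on the right in 5 of 5 libraries; the cycling class of ta-non-activated week 3 holds 5 cells and is drawn open.

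The genes most like each member over the 5 libraries were found by the smallest root mean square difference of centred log2 levels, among 7420 genes with at least 20 CPM in some library. With 5 libraries this is a description. *Fosb* was nearest to *Fos*, at 0.544 log2 units, and *Fos* to *Fosb*, which was followed by the nuclear receptor genes *Nr4a2* (0.653) and *Nr4a3* (0.848). After *Fosb* the nearest to *Fos* were *Nr4a2* (0.839) and *Rgs2*, a regulator of G protein signals (1.03). *Nr4a2* was at 489.9 CPM in naive, 79.6 in ta-non-activated week 3 and below 0.5 in the other 3 libraries. The genes nearest to *Batf* were *Ccng1* (0.350), *Tuba1a* (0.387) and *Il12rb1* (0.389), an IL-12 receptor chain gene, which was at 50.7, 80.7 and 70.0 in ta-non-activated week 2, ta-activated week 2 and ta-activated week 3 and at 10.5 and 4.58 in naive and ta-non-activated week 3. *Jun* was most like *Aff3* (0.369), *Il17rb*, which encodes a chain of the IL-25 receptor (0.458), and *Dusp10*, a phosphatase gene of the JNK and p38 pathways (0.530). *Jund* was most like *Chmp1b*, *Tfdp2* and *Gpbp1l1*, all within 0.14, *Junb* like *Gm26699*, *Anks1* and *St7*, *Fosl2* like *Ypel2*, *Gramd3* and *Pde4d*, and *Fosl1*, at levels near its counting error, like *Rpa3*, *Kcnn4* and *Tusc3*. *Batf3*, also scarce, was most like *Phlda1*, *Srgn* and *Nxn*.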

How the data were processed

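Single-cell RNA was counted in 5 libraries. The authors deposited 1 matrix of raw UMI counts per library, made with Cell Ranger (6.0.0 in the header of the naive matrix, 3.0.2 in the others) on GRCm38. The annotation release and the strand setting are not given in the sources used here. Gene identifiers were matched to GENCODE M21 (99.7%). From these counts, a barcode was used if it had 200 genes or more and if mitochondrial genes took less than 5% of its counts. No doublet caller was run, so doublets may remain. Counts were summed per library, or per library and class of cell after thinning to 2000 UMIs with a fixed seed, and compared with edgeR 4.0.16 (TMM, filterByExpr, quasi-likelihood test, Benjamini-Hochberg adjustment over all genes tested, threshold 0.05). The standard error given for an edgeR fit is the absolute log2 difference divided by the square root of the F statistic of its test. DESeq2 1.42.0 was an alternative. Classes within a library had the library as a block. Intervals are exact at 95%. The fits were tested on simulated counts. The members and the gene lists were chosen with earlier results of these data known. Named were the 9 members, the 3 genes most like each, and of each list the genes that passed, or otherwise up to 4 of the most abundant. The naive library alone was not tested against others.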

Additional observations from a re-analysis of the deposited data

Results flagged for a closer look

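At week 2 and at week 3 the difference between the ta-activated and the ta-non-activated library had opposite signs for 6 genes. With 1 library per group and week, the difference between weeks was not tested. On the scale of log2(CPM + 1), over all kept cells, *Fos* differed by 0.803 at week 2 and -7.94 at week 3, *Fosb* by 0.151 and -7.02, *Fosl2* by 1.37 and -3.27, *Jund* by 1.35 and -0.618, *Batf* by -0.20 and 3.88, and *Batf3* by 0.993 and -0.843. In ILC2-gated cells the same pairs were 0.799 and -9.10 for *Fos*, 0.204 and -8.98 for *Fosb*, 1.33 and -4.40 for *Fosl2*, 1.36 and -1.14 for *Jund*, -0.186 and 3.82 for *Batf*, and 0.344 and -1.59 for *Batf3*. For *Fosb* the week 2 value over all kept cells rests on 14 and 4 UMIs with overlapping intervals. In ILC2-gated cells it rests on 12 and 2 UMIs, also overlapping. The *Batf3* week 2 intervals overlap in ILC2-gated cells, so these signs are not resolved. For *Batf3* the week 3 value rests on 2 UMIs in the ta-activated library, under the floor. Its size is thus not resolved, though the intervals of the week 3 libraries do not overlap. All of the week 2 values share the library labelled ta-non-activated week 2, whose *Il13* and *Il9* levels were above those of the cultured libraries.

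*Fosl2* was higher in cells with an *Il13* UMI in the 3 fresh libraries, by 0.777 in naive, 0.515 in ta-non-activated week 2 and 0.571 in ta-non-activated week 3, and lower in both cultured libraries, by a log2 difference of -0.925 at week 2 and -0.118 at week 3. That difference between fresh and cultured libraries was not tested, and the classes without *Il13* held 2 *Fosl2* UMIs in ta-non-activated week 2 and 20 in ta-activated week 3. The class intervals overlap in both ta-non-activated libraries and in ta-activated week 3, so the direction is not resolved there. When *Il5* divided the cells, *Fosl2* was at 6.52 against 8.02 CPM in ta-non-activated week 2, with overlapping intervals. It was at 20.4 against 15.4 in ta-activated week 3, also overlapping. The remaining libraries kept their direction.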

How the results depend on the processing

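Counts of genes called moved with the processing. For ta-activated against ta-non-activated, DESeq2 called 1047 and the replicate block by week in ILC2-gated cells 92, against 0. Leaving out 1 library gave 0 to 1646 calls, the highest without ta-non-activated replicate 1, the week 2 library (102 in ILC2-gated cells), and in ILC2-gated cells 65 and 71 without ta-activated replicate 1 and 2. For cultured against fresh, DESeq2 called 658, no filter on low counts 4 and ILC2-gated cells 9, and leaving out 1 library gave 0 each time. The gate together with leaving out ta-non-activated replicate 1 gave 1859, and with any other library left out 0. For the *Il13* classes (228 in the fit as reported), thinning to 1000 UMIs gave 118, no replicate block 2, DESeq2 69 and fresh libraries alone 75, and leaving out 1 library 125 to 242. For cycling cells (1263), thinning to 1000 gave 681, no replicate block 112, and leaving out 1 library 455 to 1332. The correlation of deviations between libraries of the same week was -0.0596 in all kept cells and 0.0552 in ILC2-gated cells. With 2 libraries per group it takes the same value at both weeks and cannot show whether the weeks pair. The block by week called no member.

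Some log2 differences changed sign. For ta-activated against ta-non-activated, *Batf3* was -0.83 in ILC2-gated cells, -1.20 with the replicate block and -2.004 with both, and *Jund* was -0.44 in ILC2-gated cells, -0.19 after thinning and -0.079 with the replicate block in ILC2-gated cells. When 1 library was left out, the value ran for *Fos* from -8.38 to 1.04 (ILC2-gated 1.0015), *Fosb* from -8.96 to 1.33 (ILC2-gated 2.17), *Fosl2* from -3.14 to 1.13 (ILC2-gated 1.11), *Jund* from -0.41 to 0.99 (ILC2-gated -1.13, -0.68, -0.30), *Batf* from -0.027 to 3.66 (ILC2-gated -0.023), *Batf3* from -5.17 to 1.63 (ILC2-gated -5.76, -1.13, -0.64). For cultured against fresh, *Batf3* was -0.79 in ILC2-gated cells and -1.84 after thinning. When 1 library was left out, the value ran for *Jund* from -0.51 to 0.11, *Batf3* from -5.67 to 1.30 (ILC2-gated -5.67, -0.85, -0.83, -0.71). For the *Il13* classes, *Jun* was -0.015 with no ILC2 gate and -0.090 with *Il5*. When 1 library was left out, the value ran for *Fosl2* from -0.21 to 0.58, *Jun* from -0.019 to 0.34. The cause was not tested. Low counts limit *Fosl1*, *Batf3* and, outside the naive and ta-non-activated week 3 libraries, *Fos* and *Fosb*. For *Fos* and *Fosb* the libraries with low counts were the deeper ones. Their median was 12296.5 to 16090 UMIs per cell, against 4517 in naive and 4396 in ta-non-activated week 3. Of 180 level values recomputed, 66 moved beyond their counting interval.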
